A study of Mus musculus with 15 samples.

Results

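The proteasome genes of mouse liver were described in diabetic mice given the herbal medicine Xiao-Ke-An (XKA), in diabetic mice given water, and in non-diabetic mice. Genes were taken by symbol from the array annotation: every Psma, Psmc or Psmd symbol followed by a digit, and Psmb1 to Psmb7. This rule found 36 of the 18193 genes measured, each read from its brightest probe set over all arrays. They comprised 8 genes of the alpha ring and 7 of the beta ring of the 20S core, 6 ATPases and 3 other subunits of the base of the 19S cap, 8 subunits of its lid, 3 assembly chaperones that carry a Psmd symbol, and Psmc3ip, which shares the prefix but encodes a factor of meiotic recombination.

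Liver RNA was hybridised to single-colour Affymetrix arrays, 15 in all, with 5 male mice in each of 3 groups. In the XKA group, KKAy mice received XKA by gavage at 1.5 g/kg once daily for 32 days. The Model group consisted of KKAy mice given distilled water over the same time, and the Normal group of C57BL/6J mice given distilled water. KKAy is a mouse strain that carries the yellow agouti allele and becomes obese and diabetic. The mice were 10 weeks old when dosing began. Both KKAy groups ate a high-fat diet while the C57BL/6J mice ate chow, and the strains came from different suppliers, so that strain, diet and supplier cannot be told apart in any comparison with Normal mice. The study's methods place the killing of the mice, at which the livers were taken, in the fed state, but describe the blood drawn just before it as fasting blood, so the feeding state is stated in both ways.

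The deposited signals had medians of 136 to 161 on the XKA arrays, 127 to 162 on the Model arrays and 146 to 182 on the Normal arrays, and each array was scaled to a median of 1000 units. Of 9 hepatocyte marker genes 8 were measured, and the mean signal of all 8 was above the array median in each group. Apob, the structural protein of very low density lipoproteins, was the 1 marker called between Model and Normal mice. It was higher in Model mice (log2 change 0.57, limma adjusted p = 0.0177), and also in XKA than in Normal mice (0.56, limma adjusted p = 0.0294). Between Model and Normal mice 6 of the 8 markers were above 0 and 2 below (median 0.29, against 0.15 over all genes). The number of arrays limits the precision: the median SE of a log2 change over the 36 genes between Model and Normal mice was 0.14, against 0.28 over all genes. Liver is a mixture of cells, and in such bulk RNA a smaller number of cells of a type and less RNA per cell cannot be told apart.

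The proteasome is the large protease that degrades proteins marked with ubiquitin. Its 20S core is a barrel in which rings of alpha subunits gate the entrance and rings of beta subunits hold the catalytic sites, and its 19S cap recognises, unfolds and threads the substrate. In hepatocytes the proteasome is also known for the degradation of newly made apolipoprotein B. When proteasome activity falls short, the transcription factor NRF1, encoded by Nfe2l1, is processed and raises the transcription of nearly all subunit genes together through antioxidant response elements in their promoters.

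Promoter sequences from RefSeq (GRCm38.p6, 250 bases before to 50 after the start of the gene) were found for 29 of the 36 genes. The core of the antioxidant response element, TGACNNNGC on either strand, occurred in the window of 5 of these 29 genes (17.2%), and in that of 14.0% of 27025 genes with an entry. The 5 genes were Psmb5, Psmb6, Psmc6, Psmd9 and Psmd12. The windows of Psmd8 and Psmd9 are shown because both genes were called between groups, and those of Psmb5 and Psmb6 because they encode catalytic subunits; Psmb7 had no entry. Capitals mark the core, and a window without capitals holds none of these letters in this order. In these 3 windows the first base of the core lay 31 bases before the start of Psmd9, 47 before that of Psmb5 and 9 before that of Psmb6. A match is a description of the letters only.
Psmd8 (chr7:29180624-29180923, minus strand): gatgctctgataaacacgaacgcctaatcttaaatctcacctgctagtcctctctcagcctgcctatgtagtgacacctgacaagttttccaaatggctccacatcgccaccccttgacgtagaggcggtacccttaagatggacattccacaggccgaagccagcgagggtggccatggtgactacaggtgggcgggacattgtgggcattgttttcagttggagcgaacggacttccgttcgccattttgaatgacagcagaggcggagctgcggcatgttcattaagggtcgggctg
Psmd9 (chr5:123227940-123228239, plus strand): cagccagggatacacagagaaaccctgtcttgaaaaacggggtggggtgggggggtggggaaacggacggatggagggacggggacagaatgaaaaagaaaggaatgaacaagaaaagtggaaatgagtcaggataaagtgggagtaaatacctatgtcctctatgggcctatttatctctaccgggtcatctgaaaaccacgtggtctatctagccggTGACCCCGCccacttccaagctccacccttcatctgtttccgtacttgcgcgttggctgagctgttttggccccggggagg
Psmb5 (chr14:54617946-54618245, minus strand): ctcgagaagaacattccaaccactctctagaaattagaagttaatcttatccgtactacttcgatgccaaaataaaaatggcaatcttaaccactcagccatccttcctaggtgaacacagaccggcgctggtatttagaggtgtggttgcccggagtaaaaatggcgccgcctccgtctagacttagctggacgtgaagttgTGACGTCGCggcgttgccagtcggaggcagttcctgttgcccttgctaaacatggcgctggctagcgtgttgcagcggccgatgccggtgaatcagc
Psmb6 (chr11:70525107-70525406, plus strand): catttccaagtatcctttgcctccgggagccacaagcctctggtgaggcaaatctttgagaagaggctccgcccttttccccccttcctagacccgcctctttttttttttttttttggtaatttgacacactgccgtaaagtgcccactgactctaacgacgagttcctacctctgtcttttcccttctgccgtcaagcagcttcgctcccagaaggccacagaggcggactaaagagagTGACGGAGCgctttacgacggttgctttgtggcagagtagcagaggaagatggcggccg

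The first comparison set Model against Normal livers, that is, the diabetic state against the non-diabetic one. Psmb7, Psmd8 and Psma8 were higher in Model livers, Psmd9 was lower, and 32 of the 36 did not pass the test (limma, Benjamini-Hochberg adjusted over all genes). The 3 genes that were higher are 8.33% of the 36, while 10.6% of all genes were called higher; the 1 gene that was lower is 2.78%, while 2.43% of all genes were called lower. Both shares lie near the background of this comparison. The signals of the Model and Normal arrays did not overlap for 2 of the 36 genes, Psmb7 and Psmd9, against 10.6% of all genes.

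**Figure D1:**
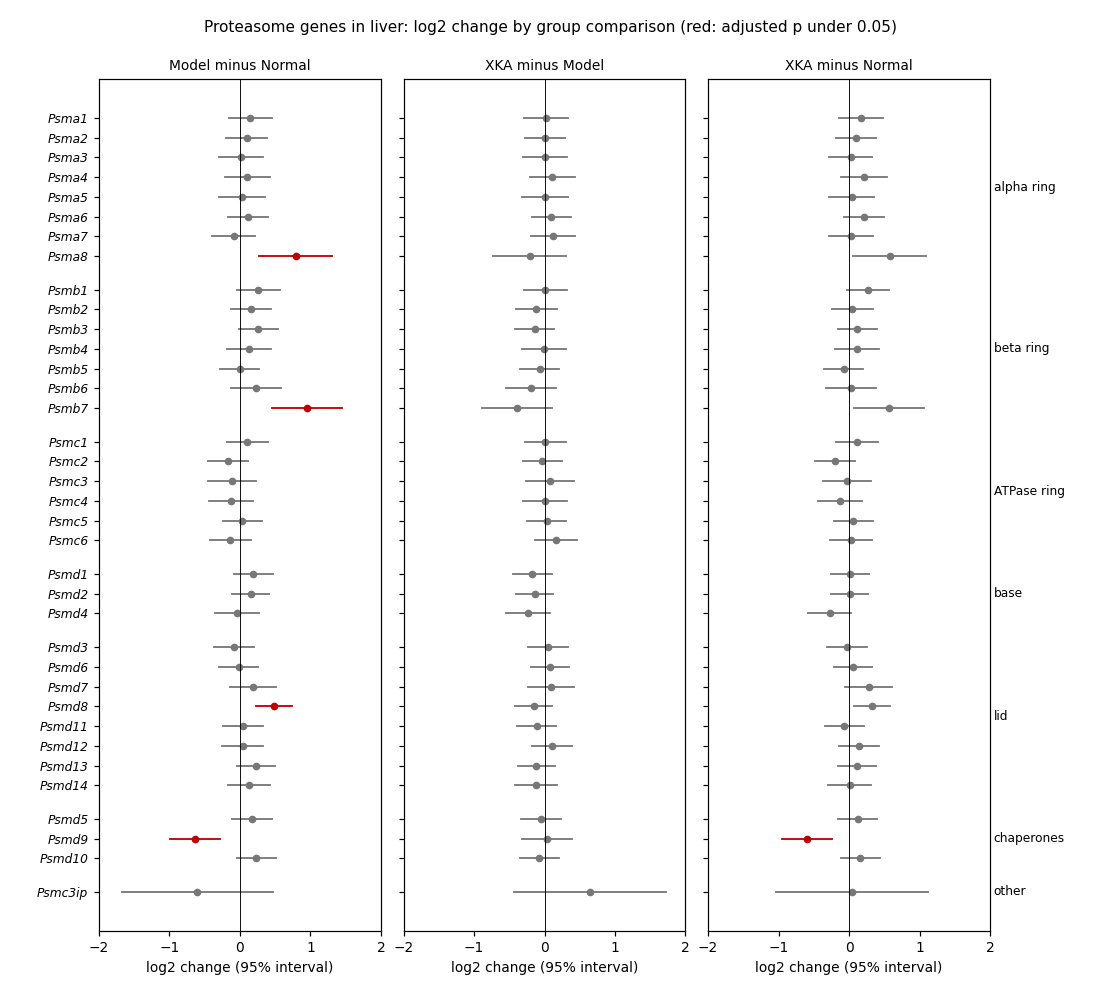
Log2 change (horizontal axis) of each of the 36 genes in the 3 comparisons, ordered by role, with 95% intervals; red marks an adjusted p under 0.05. Between Model and Normal livers 3 genes stand to the right and 1 to the left in red, between XKA and Model livers none is red, and between XKA and Normal livers Psmd9 is red.

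Psmb7 encodes the catalytic beta subunit with trypsin-like activity. Its scaled signal (probe set 1416240_at) was 20740, 21613, 25571, 10736 and 9104 in the XKA livers, 27119, 20090, 15945, 22801 and 21470 in the Model livers, and 13810, 12607, 10407, 9771 and 8950 in the Normal livers. Every Model liver lay above every Normal liver, while XKA replicates 4 and 5 lay within the Normal range and the other XKA livers within the Model range. The mean was 21485 ± 4066 in Model and 11109 ± 2030 in Normal livers (SD, n = 5 each), a log2 change of 0.95 (SE 0.24, 95% interval 0.45 to 1.45, limma adjusted p = 0.0110). An exact permutation test of the 5 against 5 arrays gave p = 0.00794 (two-sided), the smallest it can give. With Dunnett's test, adjusted over all genes in the same way, Psmb7 missed the threshold (adjusted p = 0.0925).

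The other catalytic subunits of the constitutive core did not pass the test. Psmb5, the chymotrypsin-like subunit, gave 59226, 74081, 74372, 69222 and 59625 in XKA livers, 72359, 69542, 77029, 77279 and 57211 in Model livers, and 82919, 85744, 59460, 61645 and 66804 in Normal livers. The groups overlapped widely, with a log2 change of -0.00 (95% interval -0.28 to 0.27, limma adjusted p = 0.989). Psmb6, the caspase-like subunit, gave 69287, 86679, 92847, 80108 and 52739 in XKA livers, 85512, 88320, 98724, 98839 and 62887 in Model livers, and 89648, 88868, 59646, 66452 and 67555 in Normal livers. Here 1 Normal liver lay below the lowest Model liver and the other 4 lay within the Model range, and the log2 change was 0.22 (95% interval -0.13 to 0.58, limma adjusted p = 0.454). Whether the change of Psmb7 differed from those of Psmb5 and Psmb6 was not tested, since they were read by different probe sets.

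Psmd8 is a subunit of the 19S lid, the part that holds the deubiquitinating enzyme of the cap. It gave 55934, 71343, 72444, 67427 and 58163 in XKA livers, 74434, 70821, 78760, 77568 and 60334 in Model livers, and 58890, 60574, 45466, 46201 and 48192 in Normal livers. Of the Model livers 1, replicate 5, fell below the highest Normal liver, and the XKA livers spanned both ranges. The mean was 72383 ± 7406 in Model and 51865 ± 7276 in Normal livers (SD, n = 5 each), a log2 change of 0.49 (SE 0.12, 95% interval 0.23 to 0.74, limma adjusted p = 0.0118).

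Psmd9 encodes a chaperone that helps to assemble the base of the 19S cap and is not part of the finished particle. Its signal was 10462, 15125, 17561, 16471 and 10464 in XKA livers, 13739, 12575, 14647, 14916 and 11032 in Model livers, and 27909, 23946, 19271, 17835 and 16626 in Normal livers. No Model liver reached the Normal range, and only XKA replicate 3 exceeded the lowest Normal liver. The mean was 13382 ± 1601 in Model and 21117 ± 4703 in Normal livers (SD, n = 5 each), a log2 change of -0.64 (SE 0.17, 95% interval -0.995 to -0.284, limma adjusted p = 0.0164; exact permutation p = 0.00794). The call was lost without the intensity trend in the variance (limma adjusted p = 0.0511) and with the mean of the probe sets of the gene (limma adjusted p = 0.0854). It was also lost with Dunnett's test, adjusted over all genes in the same way.

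Psma8 encodes an alternative alpha subunit known from the testis, and its signal was low. It ranged from 1368 to 2572 (median 1917) in XKA livers, from 1879 to 2453 (median 2357) in Model livers and from 991 to 1969 (median 1221) in Normal livers. Normal replicate 5 lay among the Model livers, while the other Normal livers lay below all of them. The log2 change between Model and Normal livers was 0.79 (SE 0.25, limma adjusted p = 0.0392). It missed the threshold on the unscaled signals (limma adjusted p = 0.148) and in 8 of the 15 fits that left out 1 array.

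**Figure D2:**
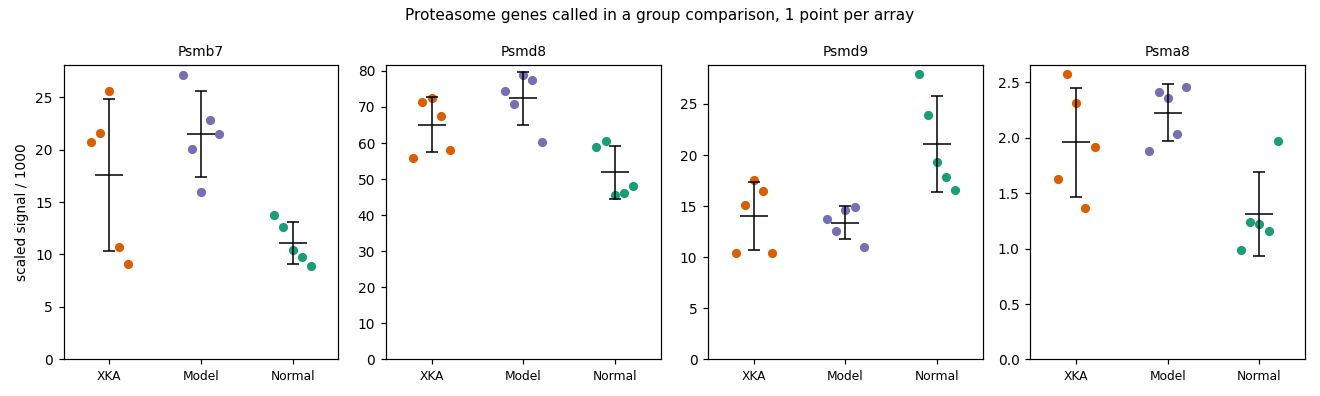
Scaled signal divided by 1000 (vertical axis, array median = 1) of Psmb7, Psmd8, Psmd9 and Psma8 in the XKA, Model and Normal livers; points are arrays, bars the mean and SD of 5. Psmb7 and Psmd9 separate the Model from the Normal livers, while 1 array overlaps for Psmd8 and for Psma8.

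The genes that did not pass the test mostly lay near 0 between Model and Normal livers. The 32 genes not called in any comparison had a median log2 change of 0.10, with an extreme of -0.60 for Psmc3ip, whose signal was 151 to 971 in Model and 352 to 1301 in Normal livers. Without the 4 called genes, 29 of these 32 lay within 0.25 of 0 on the log2 scale. Of the 26 genes whose whole 95% interval lay within 0.5 of 0, none was among the called ones. By role, and with the called genes counted in, the ATPase ring, whose subunits unfold the substrate, had a median of -0.12 with 4 of its 6 genes below 0. The beta ring, Psmb7 included, had a median of 0.22 with 6 of 7 genes above 0. The lid, Psmd8 included, had a median of 0.09 with 6 of 8 above 0.

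The direction of these small shifts was set by the scaling. Over the 36 genes the median log2 change was 0.10, against 0.15 over all genes, and 25 genes were above 0. On the signals as deposited the medians were -0.09 and -0.04, and after quantile normalization -0.09 and 0.04, with 8 and 9 of the 36 genes above 0. Likewise, 81.3% of the genes called in the whole comparison were higher in Model livers after scaling, 52.5% on the deposited signals and 59.2% after quantile normalization. Psmb7 and Psmd8 stayed called as higher and Psmd9 as lower under all 3 scalings. Psmc2 and Psmc6, both ATPases of the base, were called lower in Model livers only on the deposited and quantile-normalized signals (log2 changes -0.36 and -0.33 on the deposited signals, limma adjusted p = 0.0285 and 0.0484; after scaling to 1 median -0.16 and -0.14). Psmc3, another ATPase, was called lower only after quantile normalization (log2 change -0.29, limma adjusted p = 0.0482).

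The joint level of the 36 genes varied from array to array within each group. On the log2 scale, the median of their deviations from the gene means ran from -0.23 to 0.22 in XKA livers. It ran from -0.22 to 0.19 in Model livers and from -0.25 to 0.19 in Normal livers. After this scaling the 3 groups covered almost the same range, while the middle array stood at 0.04 in XKA, 0.07 in Model and -0.17 in Normal livers. XKA replicate 5 held the lowest signal of all arrays for 11 of the 36 genes, Normal replicate 3 for 8 and Model replicate 5 for 6. Over all genes the median deviation was also below 0 on these arrays, at -0.12, -0.17 and -0.08 in that order. Normal replicate 2 held the highest signal for 9 of the 36 genes and XKA replicate 3 for 8. There the median deviation over all genes was -0.02 and 0.14. The array medians of the 36 genes were smaller in spread after quantile normalization, with an SD of 0.03 in XKA, 0.04 in Model and 0.09 in Normal livers. After scaling to 1 median the SDs were 0.20, 0.16 and 0.20. After quantile normalization the array medians ran from -0.04 to 0.03 in XKA, -0.11 to -0.01 in Model and -0.04 to 0.20 in Normal livers.

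**Figure D3:**
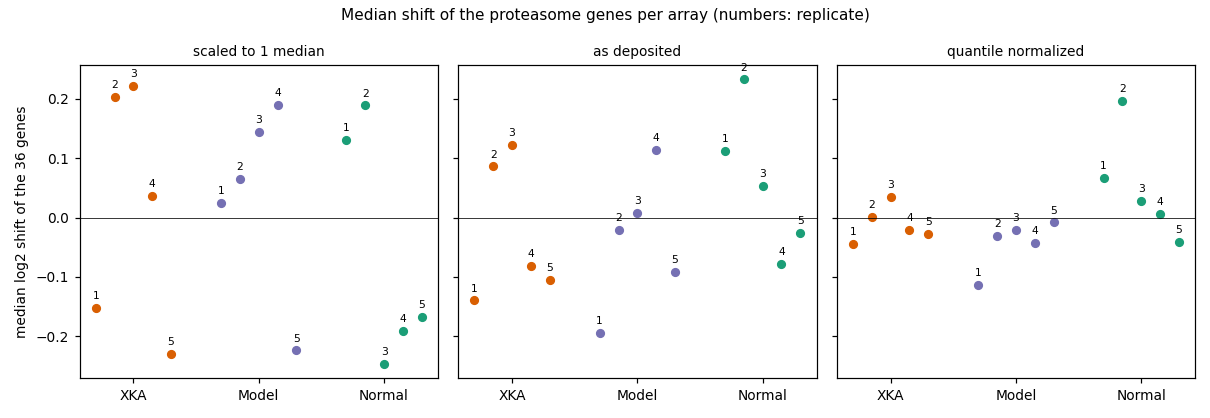
Median over the 36 genes of the log2 deviation from the gene mean (vertical axis) for each array, by group, after scaling to 1 median, as deposited and after quantile normalization; the number at a point is the replicate. The groups overlap in each panel, and after scaling XKA replicate 5, Model replicate 5 and Normal replicate 3 are the lowest of their groups.

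The second comparison set XKA against Model livers, asking what the treatment did to proteasome genes within the KKAy strain. None of the 36 genes was called in either direction (limma), and 0 reached an unadjusted p of 0.05. Over all genes 0.066% were called higher and 0.11% lower, and 1567 of 18193 reached an unadjusted p of 0.05. Dunnett's test, which the study's methods name, called 0 of all 18193 genes in either direction. Its 0 of the 36 therefore says nothing particular to these genes. The median log2 change was 0.00 over the 36 genes and -0.06 over all genes, and 34 of the 36 changes lay within 0.25 of 0. For 31 genes the whole 95% interval lay within 0.5 of 0, so a change of that size was outside the interval for them. Psmb7 had the widest interval among the subunits of the liver proteasome: its mean was 17552 ± 7225 in XKA and 21485 ± 4066 in Model livers (SD, n = 5 each), a log2 change of -0.38 (95% interval -0.88 to 0.11, limma adjusted p = 0.697).

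The reverse rate, taken from the study's methods, divides the difference of Model and XKA means by that of Model and Normal means. It was 0.379 for Psmb7, 0.357 for Psmd8, 0.292 for Psma8 and 0.0821 for Psmd9. Both differences share the Model arrays, and the rate has no test. Leaving out 1 array at a time gave 0.175 (without XKA replicate 5) to 0.572 (without XKA replicate 3) for Psmb7, and 0.246 to 0.447 for Psmd8. For Psma8 the range was 0.129 to 0.459. For Psmd9 it was -0.03 to 0.197, without XKA replicate 3 and without XKA replicate 1.

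The third comparison set XKA against Normal livers and shares its arrays with the others. No gene of the 36 was called higher and Psmd9 was called lower, against 5.53% of all genes called higher and 1.95% called lower. The mean of Psmd9 was 14016 ± 3357 in XKA and 21117 ± 4703 in Normal livers (SD, n = 5 each), a log2 change of -0.60 (SE 0.17, 95% interval -0.95 to -0.24, limma adjusted p = 0.0347). This call was lost without any 1 of XKA replicates 1 or 5 or Normal replicates 1, 2 or 3 (limma adjusted p 0.056 to 0.0892). Psmb7 (log2 change 0.56, limma adjusted p = 0.182) and Psmd8 (0.33, limma adjusted p = 0.122) did not pass; without XKA replicate 5 Psmb7 reached an adjusted p of 0.0306 in limma. On the deposited signals Psmc2 and Psmd4, the ubiquitin receptor of the base, were also called lower (log2 changes -0.35 and -0.43, limma adjusted p = 0.0425 and 0.0120), as they were after quantile normalization. Psmb5 was called lower only after quantile normalization (-0.21, limma adjusted p = 0.0463), against -0.07 (limma adjusted p = 0.828) after scaling to 1 median.

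For 2 genes, Psmd6 and Psma6, probe sets other than the ones used above were called between Model and Normal livers. They were looked at after their values were seen, and were tested among all 34945 probe sets with 1 gene symbol. Psmd6, a lid subunit, was read by 1423697_at, on which Model and Normal livers differed by a log2 change of -0.02 (SE 0.13, limma adjusted p = 0.956). Its second probe set, 1423696_a_at, gave 8268, 80375, 80109, 8648 and 9145 in XKA livers, 8219, 9426, 5782, 8187 and 8322 in Model livers, and 101780, 129354, 97081, 105455 and 107450 in Normal livers. All Model livers and XKA replicates 1, 4 and 5 were far below the Normal livers, while XKA replicates 2 and 3 lay near them. The log2 change on this probe set was -3.77 between Model and Normal livers (SE 0.52, limma adjusted p = 6.15e-05) and 1.42 between XKA and Model livers (SE 0.52, limma adjusted p = 0.432). On the used probe set XKA replicates 2 and 3 gave 84498 and 85173, against 65195, 89875 and 65765 in the other XKA livers. With the mean of both probe sets Psmd6 was called lower in Model than in Normal livers, with a log2 change of -1.90 (limma adjusted p = 0.000489).

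Psma6, an alpha ring subunit, was read by 1416506_at, with a log2 change of 0.12 between Model and Normal livers. Its probe set 1437144_x_at gave 65487, 87015, 96746, 93301 and 65270 in Model livers, against 159484, 146197, 119364, 105836 and 101142 in Normal livers. These did not overlap, with a log2 change of -0.63 (SE 0.20, limma adjusted p = 0.0456). The XKA livers gave 72610, 128575, 140236, 101922 and 72802 on this probe set, with replicates 2 and 3 the highest. On the dim probe set 1435317_x_at, Model replicate 1 gave 7353 and the other Model livers 2050 to 2578, against 6308 to 8307 in Normal livers (log2 change -1.34, limma adjusted p = 0.00593). The XKA livers gave 4232, 6414, 6735, 5089 and 2414 on this dim probe set, with replicates 2 and 3 again the highest. An x in the name marks probes that can also match other transcripts, and an a marks probes shared by transcripts of 1 gene. Bright probe sets of other genes also differed in sign without a call. Psma7, of the alpha ring, had a log2 change of -0.09 on 1423567_a_at (means 66904 in Model and 72281 in Normal livers), the probe set used, and of 0.38 on 1423568_at (69946 in Model and 54117 in Normal livers, limma adjusted p = 0.117). Psmc2 had -0.16 on the one used and 0.22 on 1426611_at, and Psmc6 -0.14 and, on 1417770_s_at, 0.16. What the differences between probe sets come from was not tested. In all, 7 of the 75 probe sets of the 36 genes (9.33%) were called between Model and Normal livers, against 10.1% of all probe sets. The counts were 0 between XKA and Model livers and 2 (2.67%) between XKA and Normal livers, against 0.117% and 5.71% of all probe sets.

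**Figure D4:**
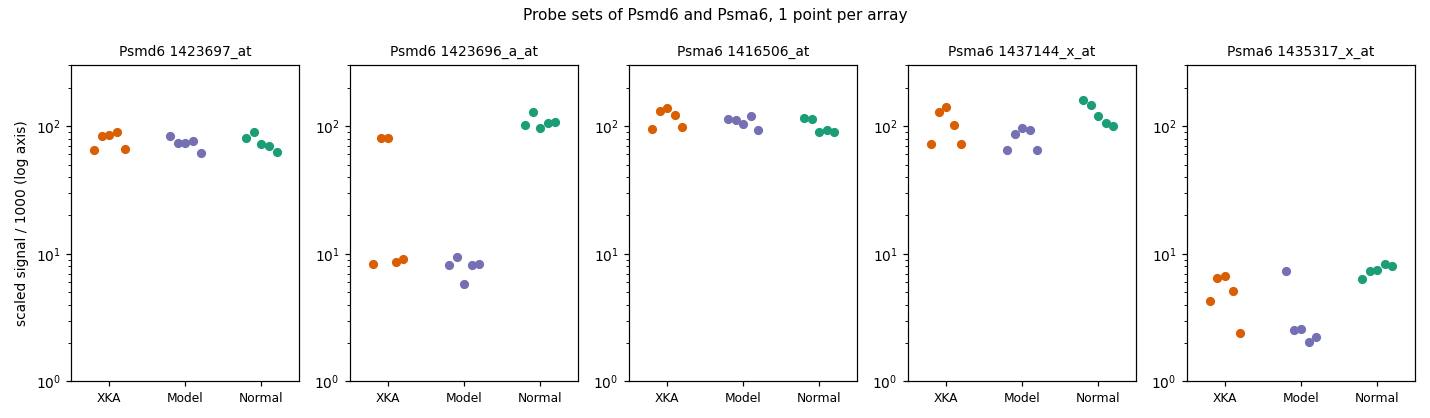
Scaled signal divided by 1000 (vertical axis, logarithmic) of probe sets of Psmd6 and Psma6 in XKA, Model and Normal livers, 1 point per array. On 1423696_a_at all 5 Model livers and 3 XKA livers lie below 10 and the others above 80, whereas 1423697_at shows the 3 groups overlapping.

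The immunoproteasome subunits replace the catalytic ones of the core after interferon exposure and in immune cells, and shift the peptides that are made toward those loaded on MHC class I. Of Psmb8, Psmb9, Psmb10 and the PA28 activator subunit Psme1, 2 of 4 were higher in Model than in Normal livers and none lower, where 10.6% of all genes were called higher and 2.43% lower. With 4 genes nothing particular to the list can be read from that count. Psmb9 gave 12410, 21023, 20343, 9520 and 12531 in XKA livers, 18640, 15956, 22632, 25385 and 11612 in Model livers, and 10537, 9874, 6227, 4934 and 7452 in Normal livers. Every Model liver lay above every Normal liver, with a log2 change of 1.28 (SE 0.25, limma adjusted p = 0.00168), and XKA livers were higher than Normal livers by 0.95 (limma adjusted p = 0.0230). The call between XKA and Normal livers was lost without XKA replicates 2 and 3 (0.60, limma adjusted p = 0.237).

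Psmb8 averaged 21697 ± 8476 in Model and 11017 ± 2311 in Normal livers (SD, n = 5 each), a log2 change of 0.91 (limma adjusted p = 0.0208). The lowest Model liver, at 13740, lay just under the highest Normal liver, at 13880, and in 4 of the 15 fits that left out 1 array the call was lost. It was also lost with the mean of its probe sets (limma adjusted p = 0.140). Psmb10, the counterpart of Psmb7, did not pass (log2 change 0.46, 95% interval -0.05 to 0.98, limma adjusted p = 0.254), nor did Psme1 (0.18, limma adjusted p = 0.530). Between XKA and Model livers none of the 4 passed, with log2 changes of -0.44 for Psmb8, -0.33 for Psmb9 and -0.04 for Psmb10. In all 3 genes XKA replicates 2 and 3 were the highest XKA livers.

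**Figure D5:**
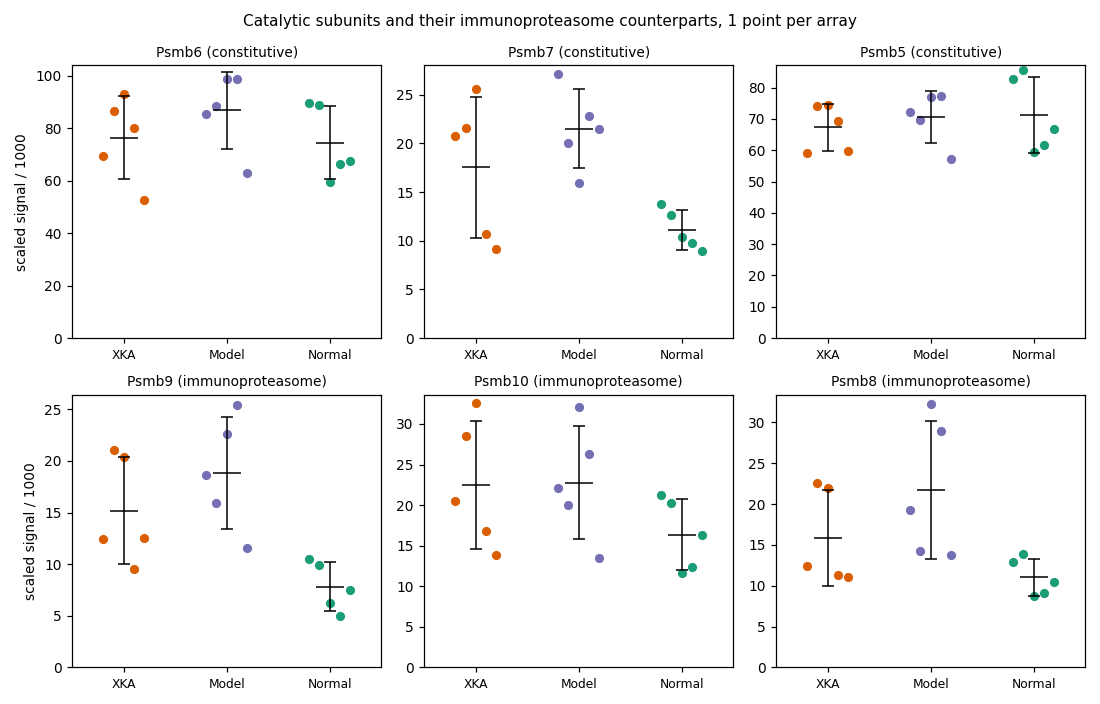
Scaled signal divided by 1000 (vertical axis) of the catalytic subunits Psmb6, Psmb7 and Psmb5 above and of their immunoproteasome counterparts Psmb9, Psmb10 and Psmb8 below, in XKA, Model and Normal livers; points are arrays, bars the mean and SD of 5. Model livers lie above all Normal livers for Psmb7 and Psmb9 and overlap them for the other 4 genes.

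Interferon-inducible genes and markers of other liver cells were measured beside these. Of 10 interferon-inducible genes 2 were higher in Model than in Normal livers, the peptide transporters Tap1 (log2 change 1.17, limma adjusted p = 0.00583) and Tap2 (0.79, limma adjusted p = 0.00483), and the median over the 10 was 0.70, against 0.15 over all genes. With the mean of its probe sets Tap1 did not pass (limma adjusted p = 0.446). Of 9 macrophage markers none was called higher and 1, Marco, was called lower. The other 8 were above 0 between Model and Normal livers without passing (limma). The median over the 9 was 0.27, against 0.15 over all genes. The summed signal of the 9 was 132196 to 256970 in XKA, 168368 to 428062 in Model and 147159 to 264220 in Normal livers. Of 9 lymphocyte markers none was called, and their summed signal was 5435 to 6620 in XKA, 6039 to 8719 in Model and 5878 to 7694 in Normal livers. The ranges of both sums overlapped between Model and Normal livers.

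Some genes of other marker lists were also higher in Model than in Normal livers. All 5 neutrophil markers were above 0 (median 0.44 against 0.15 over all genes). Of 6 endothelial markers 4 were above 0 and 2 below (median 0.18), and of 3 red blood cell markers 2 above and 1 below (median 0.53). Between XKA and Normal livers 2 of the 3 red blood cell markers were below 0 (median -0.31), while Alas2 was called higher. Of 5 neutrophil markers S100a8 was higher in Model livers (log2 change 2.16, limma adjusted p = 0.00111), and the summed signal of the 5 was 6267 to 24093 in XKA, 12798 to 29839 in Model and 5869 to 9803 in Normal livers. Of 6 endothelial markers Stab2 (0.84, limma adjusted p = 0.00138) and Clec4g (0.66, limma adjusted p = 0.0306) were higher in Model livers, and the sum was 47214 to 82666 in XKA, 63750 to 80160 in Model and 38346 to 57641 in Normal livers. Of 3 red blood cell markers Alas2 was higher in Model livers (1.88, limma adjusted p = 1.4e-06), and the sum was 22832 to 31989 in XKA, 25444 to 42215 in Model and 7770 to 16432 in Normal livers. For these 3 lists the sums of Model and Normal livers did not overlap; on the deposited signals those of the endothelial list did, and Clec4g was not called (limma adjusted p = 0.103). Of 7 stellate cell markers Col3a1 and of 4 adipocyte markers Fabp4 were called higher in Model livers after scaling to 1 median. Neither was called on the deposited signals, and both sums overlapped. Below 0 were 5 of the 7 stellate cell markers (median -0.17) and 2 of the 4 adipocyte markers (median -0.02). Between XKA and Model livers, where Psmb8 and Psmb9 differed by -0.44 and -0.33 without passing, 8 of the 9 macrophage markers and all 5 neutrophil markers were below 0, with medians of -0.59 and -0.52 against -0.06 over all genes. None of them passed (limma), and 5 macrophage and 2 neutrophil markers reached an unadjusted p of 0.05. Of the 10 interferon-inducible genes 8 were below 0 there (median -0.29), and of the 9 lymphocyte markers 6 (median -0.19), without a call. Between XKA and Normal livers, where Psmb9 was called higher, 8 of the 9 macrophage markers were below 0, with Marco called lower. Their median was -0.29, against 0.10 over all genes. Of the 5 neutrophil markers 3 were above 0 and 2 below (median 0.12). The part of such cells in the levels of Psmb8 and Psmb9 was not tested.

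Around the core and the cap, 1 gene each was called among 5 core chaperones, 8 activators, inhibitors and associated proteins, and 10 factors that work with the unfoldase VCP or carry substrates, all higher in Model than in Normal livers. These counts lie near the 10.6% of all genes called higher, with 2.43% called lower. Pomp, the chaperone that carries the maturing core, averaged 126765 ± 21495 in Model and 87062 ± 16406 in Normal livers (log2 change 0.54, limma adjusted p = 0.0272), while the other 4 measured core chaperones did not pass. The Pomp call was lost in 6 of the 15 fits that left out 1 array. Psme4, which encodes the activator PA200, averaged 117857 ± 13108 in Model and 76426 ± 7628 in Normal livers (SD, n = 5 each). The Psme4 groups did not overlap, with a log2 change of 0.62 (limma adjusted p = 0.00197), but the mean of its probe sets gave -0.25 (limma adjusted p = 0.505).

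Upstream of the proteasome, Uba6, an enzyme that activates ubiquitin, gave 8913 ± 690 in Model and 5381 ± 633 in Normal livers (SD, n = 5 each), a log2 change of 0.73 (limma adjusted p = 0.000835). XKA livers were higher than Normal livers by 0.70 (limma adjusted p = 0.00199), and neither KKAy group overlapped the Normal livers. With the mean of its probe sets neither difference passed (0.40 for Model and 0.10 for XKA, limma adjusted p = 0.166 and 0.857). Of 6 ubiquitin and ubiquitin-activating genes it was the 1 measured on a probe set with a single symbol. Of the 10 VCP and carrier factors, Faf2 was higher in Model livers (0.48, limma adjusted p = 0.0311), though not on the deposited signals (0.29, limma adjusted p = 0.175).

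A list around NRF1 named 8 genes, of which 7 were measured. It named Nfe2l1 itself, genes of NRF1 processing, small MAF partners and Nfe2l2, which encodes NRF2. Of the 7, 2 were higher in Model than in Normal livers and none lower, beside 10.6% and 2.43% of all genes. With 7 genes nothing particular to the list can be read from that count. The median over the 7 was 0.40, against 0.15 over all genes. Ngly1, which removes glycans from NRF1, gave 53125 ± 4815 in Model and 35707 ± 3083 in Normal livers (SD, n = 5 each), without overlap (log2 change 0.57, limma adjusted p = 0.00138). Mafg, a small MAF partner of NRF1, was higher by 0.48 (limma adjusted p = 0.0197), but not with the mean of its probe sets (0.28, limma adjusted p = 0.391). Nfe2l1 itself ranged from 12833 to 22284 in Model and from 9892 to 13730 in Normal livers and did not pass (log2 change 0.40, 95% interval 0.07 to 0.74, limma adjusted p = 0.115). Between XKA and Model livers none of the 7 passed. Between XKA and Normal livers Ngly1 (0.50, limma adjusted p = 0.00644) and Maff, another small MAF protein (1.17, limma adjusted p = 0.0360), were higher, 2 of the 7 beside 5.53% of all genes; without XKA replicates 2 and 3 neither passed (limma adjusted p = 0.0727 and 0.254).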

How the data were processed

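The authors deposited a table with 1 signal intensity per probe set and array, whose values are on a linear scale. The methods name ArrayTrack, with median scaling, for the study's analysis of the raw data. The deposited signals do not share a median, and no source used here names the software that made them. Following the median scaling in the methods, each array was scaled to a median of 1000 and log2 was taken. Of 45101 probe sets, 34958 had 1 gene symbol in the platform annotation, 932 several and 9211 none. Symbols were updated through Entrez identifiers for 34754 of the 34958 probe sets. After 13 control probe sets with a symbol were left out, the brightest probe set stood for each of 18193 genes. Linear models (limma 3.58.1, R 4.3.3, intensity trend) were fitted to all 15 arrays with a mean per group, and p-values were adjusted by Benjamini-Hochberg over all genes, with calls at 0.05. The script was tested on simulated data. The labels do not say how the arrays were batched, and p-values measure the spread between these mice. Values are given in every array for genes called in a comparison and for Psmb5, Psmb6 and Psmb7. Of the other gene lists, called genes were named, and Nfe2l1, Psmb8, Psmb9, Psmb10, Psme1, Psme4 and Pomp in any case; Psme2 shares its probe set with another symbol and was not used here. Psmd6 and Psma6 probe sets were chosen after their values were seen. The genes and lists were chosen with earlier results of these data known. Alternatives covered the scaling, probe sets, filter, variance model, arrays and test. Figures were drawn with matplotlib 3.10.9.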

Additional observations from a re-analysis of the deposited data

Results flagged for a closer look

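Among the 108 groups of 5 arrays formed by the 36 genes, 7 held an array set apart from the other 4 by a gap that took most of the range of the group (Dixon's test on the log2 scale, at a level that chance reaches in about 5% of groups). Model replicate 5 was lowest for 4 genes: Psma3 at 130051 against 160172 in the next Model liver, Psmb4 at 126795 against 160121, Psmd10 at 8850 against 10999, and Psmd12 at 49564 against 59087. XKA replicate 5 was lowest for Psmd2 (47088 against 61592) and for Psmd7 (13925 against 18314). Normal replicate 1 was highest for Psmd10, at 11315 against 8911.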

How the results depend on the processing

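Between Model and Normal livers the count of higher genes was 2 or 3 under every alternative run; it was 2 with Dunnett's test, without Psmb7. Over all genes the higher calls ran from 1138 on the deposited signals to 2471 with array weights. The count of lower genes among the 36 was 1, and became 3 on the deposited signals and 4 after quantile normalization. It became 0 without the intensity trend and with Dunnett's test. Over all genes the lower calls were 442 in the main fit, 1030 on the deposited signals and 1105 after quantile normalization. They were 364 without the trend and 239 with Dunnett's test. The median log2 change of the 36 genes was -0.088 on the deposited and -0.089 on the quantile-normalized signals. Between XKA and Model livers both counts stayed 0. Between XKA and Normal livers the count of lower genes became 3 on the deposited signals and 4 after quantile normalization. It became 0 without the trend, with array weights, with only the compared groups and without Model replicate 3 and XKA replicate 1 together. Over all genes the lower calls there were 355 in the main fit, 782 on the deposited and 806 on the quantile-normalized signals. In the 4 settings with a count of 0 they were 225, 395, 352 and 316, in the order named. With array weights 1 gene of the 36, Psmd8, was higher, beside 1484 of all genes. Leaving out 1 array gave 2 to 3 higher genes between Model and Normal livers, and 0 to 1 higher and 0 to 1 lower between XKA and Normal livers. With the mean of a gene's probe sets Psmd6 took the place of Psmd9. Signs of values near 0 turned. Psmb5 became 0.028 (Model and Normal, array weights) and 0.0079 (XKA and Model, without Model replicate 3 and XKA replicate 1). Psmb6 (XKA and Normal) became -0.13 on the deposited signals, -0.10 on the quantile-normalized ones and -0.15 without XKA replicates 2 and 3. Psmd6 became 0.015 with array weights (Model and Normal) and, without XKA replicates 2 and 3, -0.014 (XKA and Model) and -0.034 (XKA and Normal); between XKA and Normal livers it was also -0.10 on the deposited signals, -0.081 on the quantile-normalized ones and -1.15 when its probe sets were averaged. Psmd9 (XKA and Model) became -0.13 without XKA replicates 2 and 3, a setting chosen after seeing the data that changed no count. Psme4 became -0.25 with the mean of probe sets. Leaving out 1 array, Psmb5 ranged from -0.066 to 0.070 and Psmd6 from -0.081 to 0.045 (Model and Normal), Psmb6 from -0.049 to 0.16 and Psmd6 from -0.0064 to 0.12 (XKA and Normal), and Psmd9 from -0.050 to 0.14 (XKA and Model). The causes were not tested. The replicate numbers pair no mice in the labels: deviations of arrays with the same number correlated between -0.04 and 0.09, and a replicate block left the counts at 3 higher and 1 lower between Model and Normal livers, 0 and 0 between XKA and Model livers, and 0 and 1 between XKA and Normal livers. Precision is limited by 5 arrays a group.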

Other observations

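The split of the XKA livers on the Psmd6 probe set 1423696_a_at was set beside other probe sets, a count made after its values were seen. Among probe sets above the array median, 72 had all Model arrays more than 4-fold away from all Normal arrays. For 49 of these, all 5 XKA livers lay on the Model side of the midpoint between the Model and Normal means. For 9, XKA replicates 2 and 3 and no other XKA liver lay on the Normal side, which was the most frequent of the other patterns: probe sets of Amacr, Ankrd33b, Olig1, Prkaa2, Psmd6, Sec14l4, Stk4, Treh and Uqcr10. No other pattern held more than 3 probe sets.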
